A study of Mus musculus with 20 samples.

Results

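The genes described here carry a dividing cell through G2 and mitosis. They are a fixed list of 41 symbols, drawn up with earlier results of these data known. Genes were matched by name: a symbol counts if the array annotation gives it, alone, to a probe set. Of the 41, 39 had such a probe set, 1 probe set each, and all 39 were bright enough to be tested, with a lowest mean of 6.51 log2 units over the 20 samples. Ccnb1, which encodes cyclin B1, had no probe set named here, and the condensin subunit gene Ncapg was found only on a probe set annotated to several genes, so neither has a value. All genes with a named probe set numbered 22180, of which 16638 were tested.

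The 20 array samples held RNA of bone marrow cells from female mice of C57BL/6 background and fell into 6 groups. Common myeloid progenitors (CMP, 3 samples per genotype) and granulocyte-macrophage progenitors (GMP, 3 samples per genotype) were sorted and lysed directly. Lineage-negative marrow cells (Lin- + MCSF, 4 samples per genotype) were sorted and then kept for 12 h with 10 ng/ml of macrophage colony-stimulating factor. Each population came from wild-type mice (WT) and from mice with CreER and floxed Rptor alleles (CreER-Raptor); CreER is a Cre recombinase that acts when tamoxifen is present. Rptor encodes Raptor, the subunit that brings substrates to the growth-regulating kinase complex mTORC1. The labels do not give the promoter of CreER, whether or when it was induced, whether WT mice carried it, the age of the mice, or whether replicates were separate animals. The p-values therefore rest on how much these samples vary, and that variation may be technical.

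A cell enters mitosis when the kinase Cdk1, bound to a B-type cyclin, becomes active, and it leaves mitosis when the anaphase-promoting complex marks the cyclins and other proteins for destruction. Between these points Aurora and Polo kinases build the spindle, kinetochores attach chromosomes to it under the watch of the spindle checkpoint, motor proteins move them, and the central spindle sets the plane of division. The transcripts of these genes accumulate in G2 and are low in resting cells. Myeloid progenitors are among the most actively dividing cells of the marrow, so the genes are readily measured in them. In bulk samples, fewer cells in G2 or mitosis and less RNA per cell cannot be told apart.

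Many promoters of this gene class hold a short element called the CHR (cell cycle genes homology region), with the sequence TTTGAA, at which the MuvB complex binds with B-Myb or with repressive pocket proteins. Upstream of it lie CCAAT boxes, which the factor NF-Y binds. In promoter windows from RefSeq (build GRCm38.p6, 250 bases before to 50 bases after each annotated start), 35 of the 41 genes had an entry. TTTGAA or its reverse complement TTCAAA occurred in 27 of these 35 genes (77.1%), against 20.2% of all 27025 genes with an entry. Within 50 bases of the start it occurred in 24 (68.6%), against 5.72% of all genes. CCAAT or its reverse complement ATTGG occurred in 29 (82.9%), against 41.1%. Both motifs occurred in 24 genes (68.6%), against 8.97%. The variant TTCGAA, which is its own reverse complement, was found in 4 (11.4%), against 1.8%. Of 33 neighbouring CCAAT matches, 11 lay 31 to 34 bases apart, and 2 of the 111 motif matches overlapped another motif. These counts include both windows of Prc1 and Ect2, which have 2 annotated starts each. The hexamer TTTGAA was found in 14% of 43 S phase and replication genes and in 51.7% of 60 other mitotic genes with an entry. No match was found in the windows of Nuf2, Nusap1 and Birc5. These are letter matches and not measured binding sites.

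The following 120-base windows show how the elements are placed in some of the genes named below. They are written 5′ to 3′ on the strand of the gene, with motif matches in capitals. Position -1 is the base before the annotated start and position 1 the first base transcribed.
Cdk1: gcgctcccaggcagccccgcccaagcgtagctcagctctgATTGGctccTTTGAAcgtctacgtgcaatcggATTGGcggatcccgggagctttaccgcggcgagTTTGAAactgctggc
Ccnb2: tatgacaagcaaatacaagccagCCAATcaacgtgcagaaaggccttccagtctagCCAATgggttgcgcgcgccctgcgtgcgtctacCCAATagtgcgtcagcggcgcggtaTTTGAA
Kif11: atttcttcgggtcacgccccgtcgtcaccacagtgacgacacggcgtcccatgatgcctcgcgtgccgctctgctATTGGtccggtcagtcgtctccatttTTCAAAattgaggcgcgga
Prc1: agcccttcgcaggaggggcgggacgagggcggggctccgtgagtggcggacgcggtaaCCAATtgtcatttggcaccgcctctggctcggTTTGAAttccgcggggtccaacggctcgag
Kif23: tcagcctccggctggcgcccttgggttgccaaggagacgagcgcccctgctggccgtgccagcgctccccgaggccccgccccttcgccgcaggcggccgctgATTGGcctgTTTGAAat
Cdc20: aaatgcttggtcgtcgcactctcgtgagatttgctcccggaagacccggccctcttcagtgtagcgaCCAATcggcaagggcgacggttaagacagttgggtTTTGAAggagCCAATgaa
Ube2c: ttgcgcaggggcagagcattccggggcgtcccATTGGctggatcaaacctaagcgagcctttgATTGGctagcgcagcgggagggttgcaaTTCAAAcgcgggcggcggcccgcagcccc
Nusap1: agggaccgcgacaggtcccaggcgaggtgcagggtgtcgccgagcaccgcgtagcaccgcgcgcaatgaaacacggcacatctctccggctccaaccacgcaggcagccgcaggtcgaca

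Most of these windows span positions -120 to -1. Those of Ccnb2 and Kif23 span -110 to 10, so that the hexamer just past the start is included. The windows on the plus strand are chr19:37376262-37376381 (Kif11), chr7:80294356-80294475 (Prc1), chr2:164769809-164769928 (Ube2c) and chr2:119618178-119618297 (Nusap1). Those on the minus strand are chr10:69352913-69353032 (Cdk1), chr9:70421545-70421664 (Ccnb2), chr9:61946790-61946909 (Kif23) and chr4:118437344-118437463 (Cdc20). In Ccnb2, 3 CCAAT boxes start at positions -87, -54 and -21 and the hexamer at position 5. In Cdk1 the hexamer occurs at positions -71 and -15. Nusap1 is shown as a gene called in GMP whose window holds none of the motifs. Cdk1, Ccnb2 and Cdc20 hold them and were not called there, though all 39 changes in GMP were below 0. The median log2 change between CreER-Raptor and WT GMP was -0.63 for 26 tested genes with the hexamer in a window. It was -0.64 for 7 tested genes without it, of which Bub1 and Sgo1 hold the variant TTCGAA. Any part of the motifs in these changes was not tested.

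**Figure D1:**
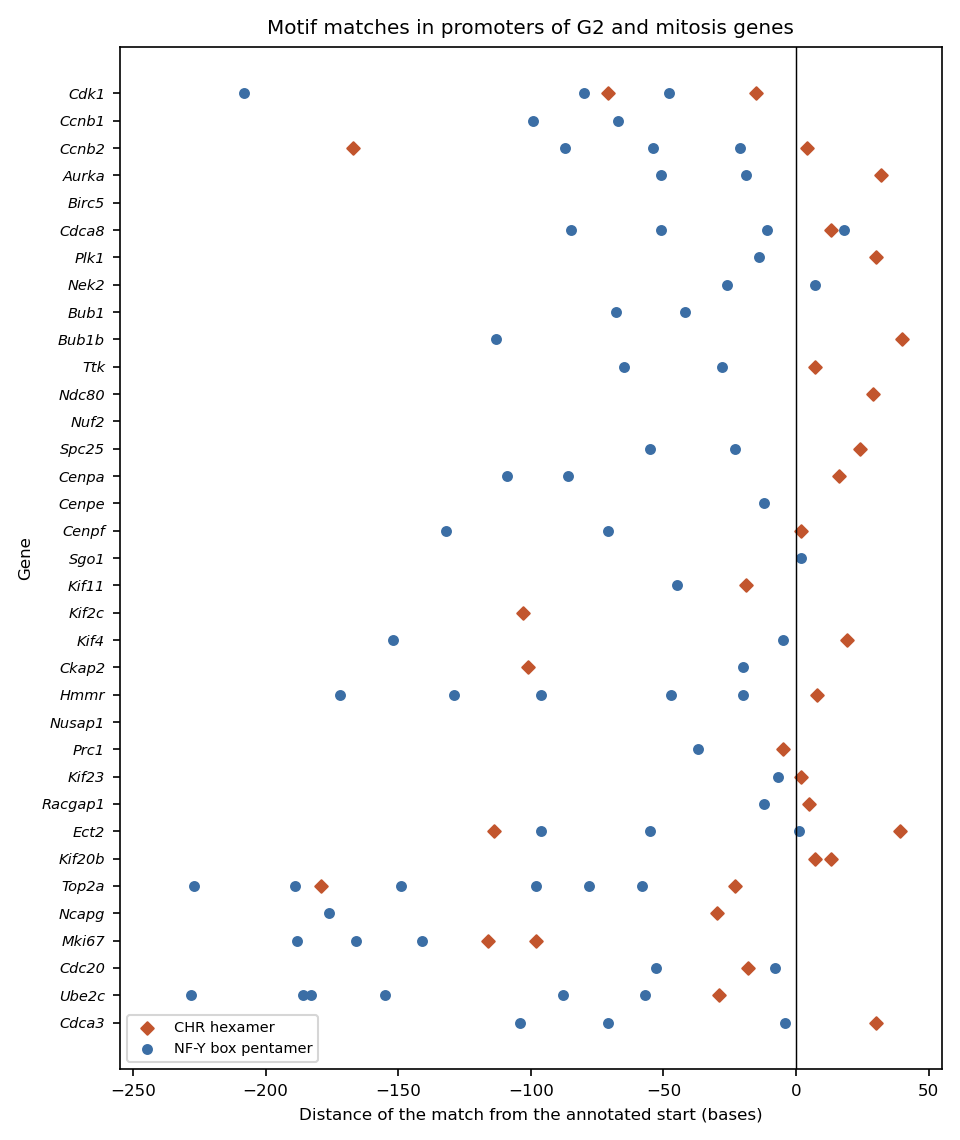
Positions of the CHR hexamer (diamonds) and the NF-Y box pentamer (circles), on either strand, in the promoter windows of 35 G2 and mitosis genes; the horizontal axis is the distance from the annotated start in bases and each row is a gene. Only the first listed start of each gene is drawn. The hexamer lies within 50 bases of the start in 24 genes, with the pentamers mostly upstream of it.

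Of the 3 comparisons between genotypes, the level of the whole set differed most in GMP. For each sample, the deviation of every gene from its own mean over the 20 samples was taken, and the median over the 39 genes is given in log2 units. In WT CMP the medians were 0.13, 0.19 and 0.21, and in CreER-Raptor CMP 0.13, 0.18 and -0.17. WT GMP had -0.02, 0.13 and -0.06, and CreER-Raptor GMP had -0.46, -0.70 and -0.53, below every other sample. In WT Lin- + MCSF the medians were 0.20, 0.44, 0.16 and 0.36, and in CreER-Raptor Lin- + MCSF -0.05, -0.02, -0.00 and -0.06. Over all tested genes the same medians ran from -0.11 to 0.06. CreER-Raptor GMP had the lowest group mean for 29 of the 39 genes and CreER-Raptor Lin- + MCSF for the other 10. WT Lin- + MCSF had the highest group mean for 23. CreER-Raptor GMP replicate 2 held the lowest single value for 24 genes. CreER-Raptor CMP replicate 3 stood apart from its group, with 29 of 39 genes below their own means, against 5 to 10 in the other 5 CMP samples.

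**Figure D2:**
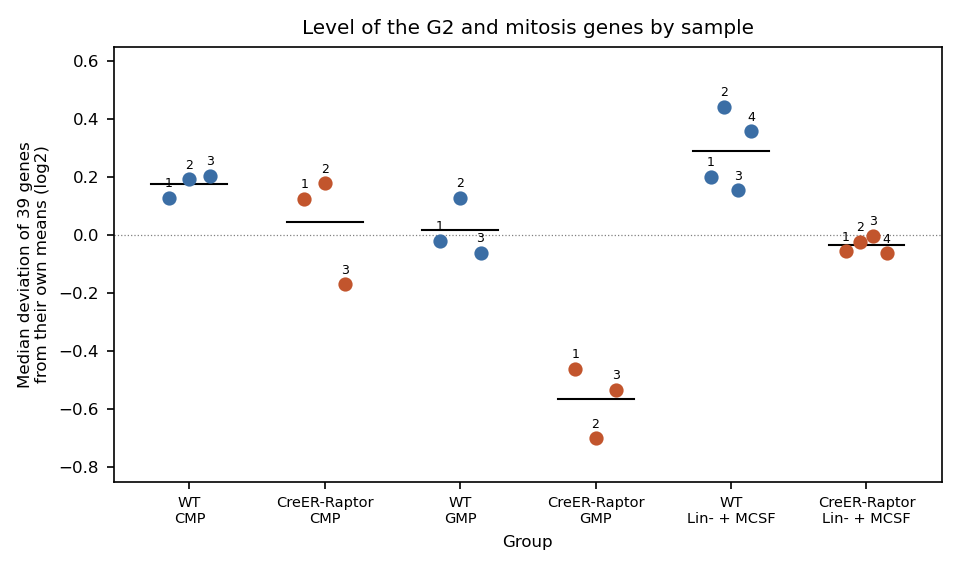
Median deviation of the 39 genes from their own means (log2 units, vertical axis) for each of the 20 samples, by group; points are samples labelled with their replicate number and bars are group means. The 3 CreER-Raptor GMP samples lie between -0.70 and -0.46, and CreER-Raptor CMP replicate 3 at -0.17 lies below the other CMP samples.

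Rptor itself did not pass the test in any population. In CMP its mean log2 value was 8.64 ± 0.11 (SD, n = 3) for WT and 8.34 ± 0.13 (SD, n = 3) for CreER-Raptor. The 2 means were 9.28 ± 0.14 and 9.11 ± 0.23 (SD, n = 3) in GMP, and 7.13 ± 0.17 and 6.95 ± 0.09 (SD, n = 4) in Lin- + MCSF. The limma adjusted p-values of these differences were 0.163, 0.465 and 0.305. Whether the probe set covers the floxed exons is not known here, so this does not measure recombination. Some markers of other cell types were called between genotypes. Of all tested genes, 4.37% were called higher and 7.53% lower in CreER-Raptor GMP. The shares were 6.01% and 5.44% in CMP, and 6.82% and 5.73% in Lin- + MCSF. Single calls in such short lists are given as values only. In GMP, 3 of 8 erythroid markers were higher in CreER-Raptor samples, with the mean of the 8 between 5.49 and 5.69 in WT samples and between 6.19 and 7.05 in CreER-Raptor samples. The 8 mature neutrophil markers had means between 9.11 and 9.56 in WT GMP and between 8.25 and 8.41 in CreER-Raptor GMP, with 3 called lower and 2 higher. In CMP, 6 of 8 erythroid markers were higher and 5 of 8 neutrophil markers lower in CreER-Raptor samples, and in Lin- + MCSF 6 of 8 erythroid markers were higher and 2 of 8 neutrophil markers lower. Of 10 markers of granulocyte and monocyte progenitors, 2 were lower and 1 higher in CreER-Raptor GMP, with the mean of the 10 between 10.69 and 10.81 in WT GMP and between 10.19 and 10.44 in CreER-Raptor GMP. Group means of the monocyte-lineage genes Irf8 and Csf1r were 10.23 and 9.48 in WT GMP and 7.47 and 7.28 in CreER-Raptor GMP, while those of the granule enzyme genes Elane and Mpo were 12.56 and 12.85 against 12.59 and 12.84. In CMP 7 of these 10 markers were lower in CreER-Raptor samples, and in Lin- + MCSF 2 were lower and 1 higher. Of 5 dendritic markers, 3 were higher in CreER-Raptor CMP and 2 in CreER-Raptor GMP. Of 7 markers of CMP and stem or multipotent progenitors, 3 were higher and 1 lower in CreER-Raptor GMP. In CreER-Raptor Lin- + MCSF 5 were higher and 0 lower, and in CreER-Raptor CMP 2 were higher and 1 lower. Of 5 monocyte and macrophage markers, 3 were lower in GMP, 3 in Lin- + MCSF and 2 in CMP. Of 4 eosinophil markers, 3 were lower in GMP, 2 in CMP and 1 in Lin- + MCSF. Of 5 mast cell and basophil markers, 2 were higher in CreER-Raptor GMP, while 1 was lower in CMP and 2 in Lin- + MCSF. Their mean lay between 7.46 and 7.61 in WT GMP and between 7.94 and 8.25 in CreER-Raptor GMP. Of 5 megakaryocyte and platelet markers, 1 was higher in CreER-Raptor GMP, 3 in CreER-Raptor Lin- + MCSF and 0 in CMP. Of 5 B cell markers, 1 was lower in CMP and 1 in GMP. The mean of 6 T and NK cell markers lay between 6.65 and 6.88 in WT Lin- + MCSF and between 6.92 and 7.27 in CreER-Raptor Lin- + MCSF, with 1 called higher, against 5.44 to 5.59 in WT CMP. Its members did not all lie the same way: the WT Lin- + MCSF and WT CMP group means were 7.54 and 4.81 for Cd3e but 9.91 and 11.04 for Nkg7. The mean of 5 B cell markers lay between 5.84 and 6.50 in WT Lin- + MCSF and between 4.98 and 5.08 in WT CMP, and that of the 5 dendritic markers between 7.20 and 7.65 and between 5.95 and 6.13. The part of these markers in the results below was not tested.

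**Figure D3:**
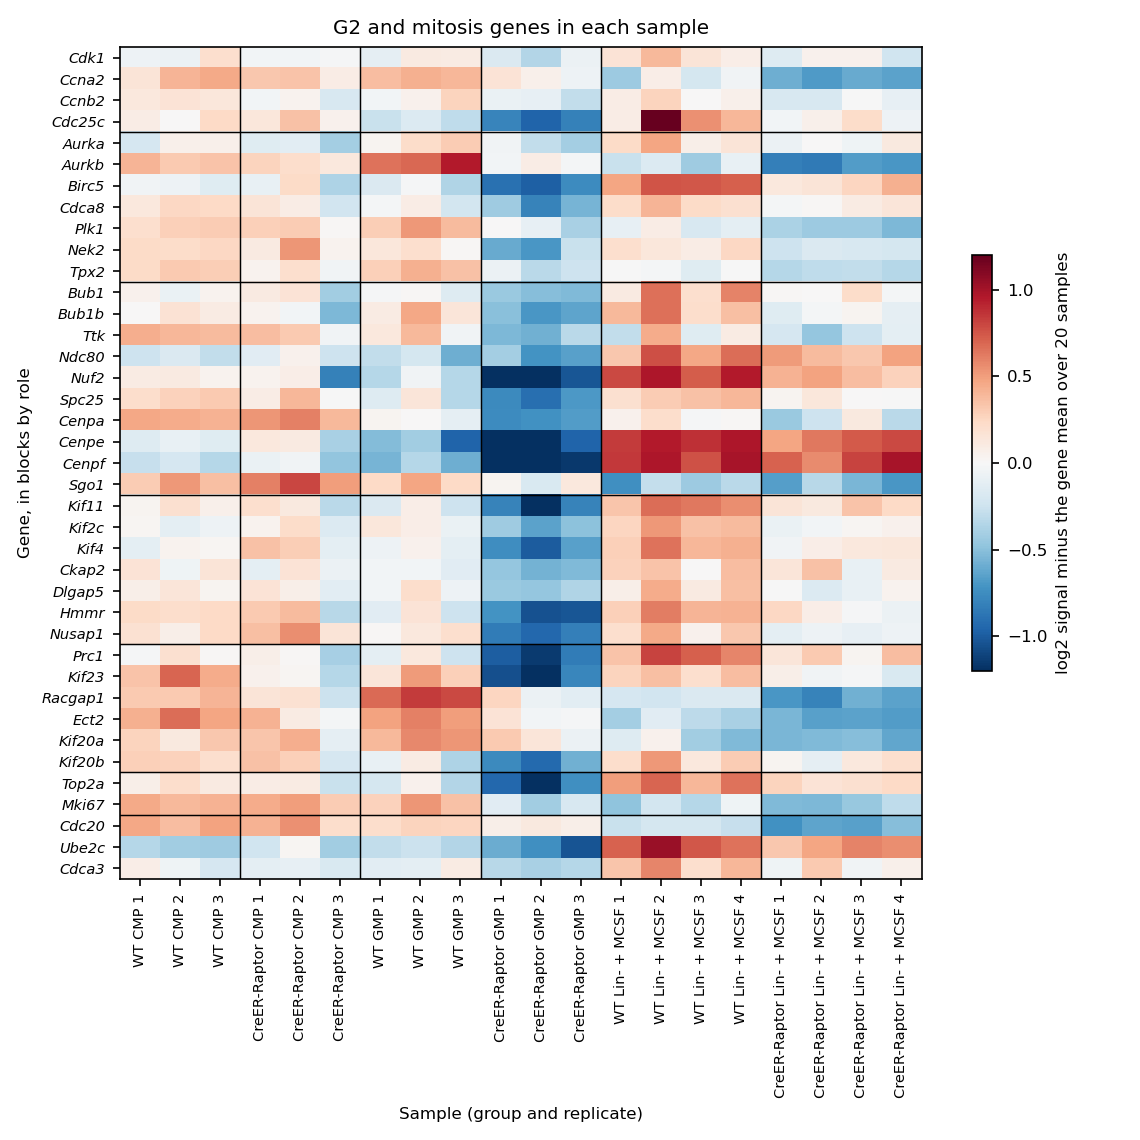
Log2 signal of each gene in each sample minus the mean of the gene over 20 samples (colour; the ends of the scale are saturated), with genes in rows by role and samples in columns by group and replicate. The CreER-Raptor GMP columns are lowest for 29 genes by group mean, while genes such as Cenpe, Cenpf and Ube2c are highest in Lin- + MCSF.

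The first question was how the 2 genotypes differ in each population. Differences are log2 changes from 1 limma fit over all 20 samples, and a gene was called at a Benjamini-Hochberg adjusted p under 0.05 over 16638 genes. In GMP, 30 of the 39 genes fell in CreER-Raptor samples and 0 rose, where 7.53% of all tested genes were called lower and 4.37% higher. The median change was -0.63, with a range from -1.38 to -0.16, and all 39 changes were below 0, against 46.9% of all tested genes, whose median change was 0.02. In 36 of the 39 genes every CreER-Raptor sample was below every WT sample, against 16.2% of all tested genes. In Lin- + MCSF, 18 genes fell and 0 rose, where 5.73% of all tested genes were called lower and 6.82% higher. The median change was -0.32 with a range from -0.52 to -0.11, and all 39 changes were below 0, against 47.5% of all tested genes. In 24 of the 39 every CreER-Raptor sample was lower, against 6.45% of all tested genes. In CMP, 2 genes fell and 0 rose, where 5.44% of all tested genes were called lower and 6.01% higher. The count of falls in CMP was thus close to the share over all tested genes. The median change in CMP was -0.07, with 28 of 39 changes below 0, against 52.2% of all tested genes, and in 7 genes every CreER-Raptor sample was lower, against 14.9%. Of the 30 genes called in GMP and the 18 called in Lin- + MCSF, 15 were shared, which is 50% of the first and 83.3% of the second. Since 30 of all 39 genes were called in GMP, a large share is given by the counts alone. Both genes called in CMP were also called in GMP.

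**Figure D4:**
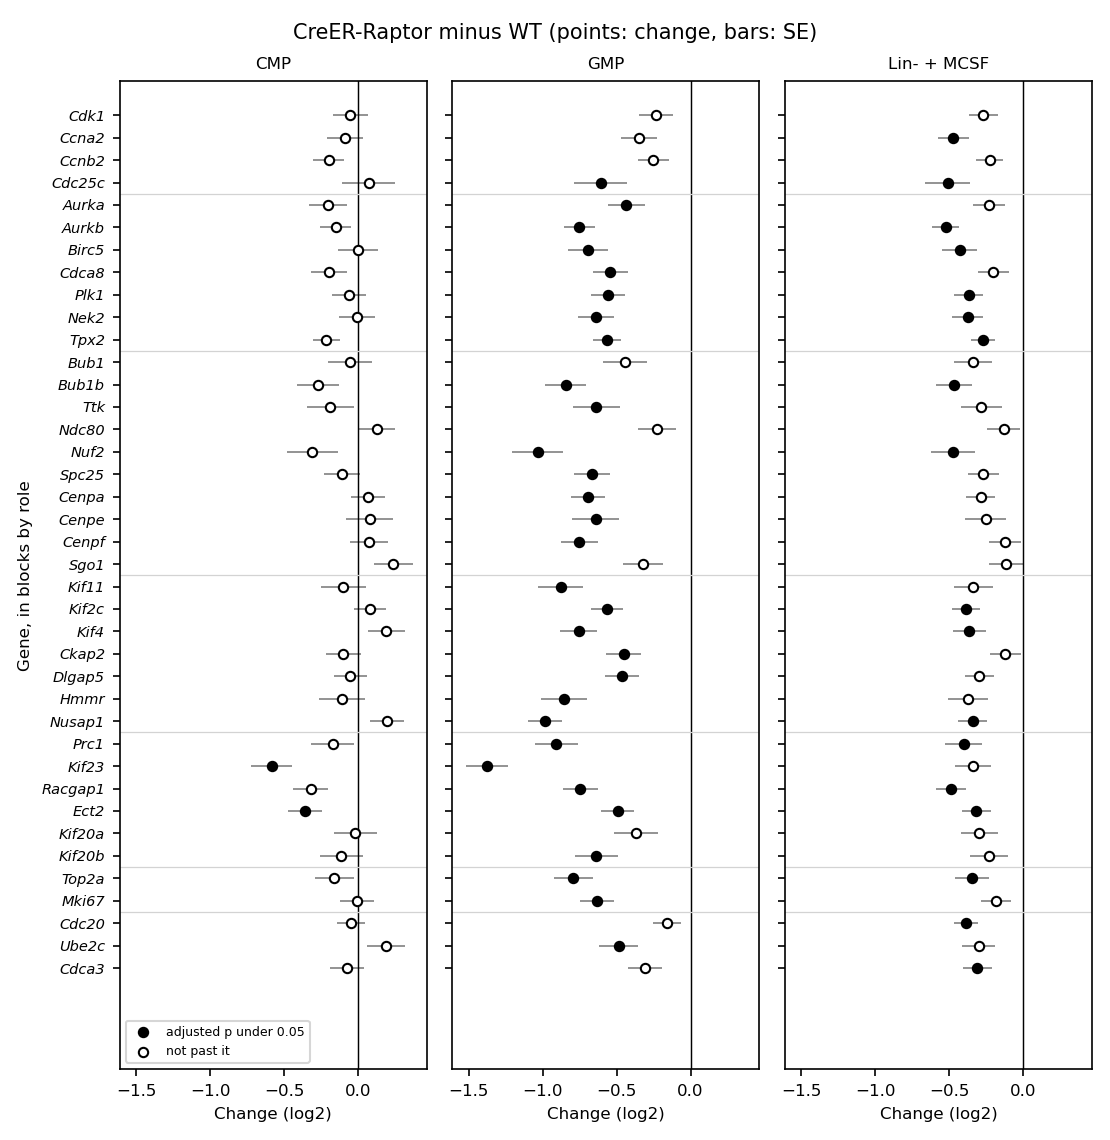
Change between CreER-Raptor and WT samples (log2, horizontal axis; points with SE bars) of each gene in CMP, GMP and Lin- + MCSF; filled points had a limma adjusted p under 0.05. In GMP 30 points are filled and all lie left of 0, in Lin- + MCSF 18, and in CMP 2.

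Of the genes that start mitosis, 1 of 4 fell in GMP, and the median change was -0.30. Cdk1, the kinase that drives entry, had log2 signals of 9.62, 9.83 and 9.82 in WT GMP and 9.54, 9.37 and 9.65 in CreER-Raptor GMP. These ranges overlapped, and the change was -0.24 ± 0.12 (SE; limma adjusted p = 0.226). Ccnb2, which encodes cyclin B2, a partner of Cdk1, changed by -0.25 ± 0.11 (adjusted p = 0.138), and Ccna2, for cyclin A2, by -0.35 ± 0.12 (adjusted p = 0.0685). Cdc25c, for a phosphatase that activates Cdk1, was the member called, at 6.24, 6.34 and 6.21 in WT GMP and 5.72, 5.54 and 5.69 in CreER-Raptor GMP. It was also the dimmest of the 4, and it was 1.52-fold lower (change -0.61 ± 0.18; adjusted p = 0.0288). In Lin- + MCSF 2 of the 4 were called. Ccna2 stood at 8.90, 9.42, 9.13 and 9.29 in WT samples and at 8.75, 8.66, 8.74 and 8.69 in CreER-Raptor samples, a change of -0.47 ± 0.10 (adjusted p = 0.00445) with no overlap. Cdc25c changed by -0.51 ± 0.15 (adjusted p = 0.0338), with WT replicate 2 at 7.71 far above the other WT samples, which ran from 6.60 to 7.05 and overlapped the CreER-Raptor samples. In CMP 0 of the 4 were called.

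The Aurora and Polo kinases and their partners fell in GMP without exception, 7 of 7, with a median change of -0.57. Aurkb, the kinase of the chromosomal passenger complex that corrects faulty attachments, read 10.18, 10.21 and 10.48 in WT GMP and 9.49, 9.62 and 9.50 in CreER-Raptor GMP. It was 1.69-fold lower (change -0.75 ± 0.11; adjusted p = 3.48e-05). Tpx2, which activates Aurora A on the spindle, read 8.90, 9.03 and 8.97 against 8.54, 8.29 and 8.36 (change -0.57 ± 0.09; adjusted p = 0.000239). Nek2, a kinase that helps centrosomes part, read 7.77, 7.84 and 7.65 against 7.03, 6.93 and 7.37 (change -0.64 ± 0.12; adjusted p = 0.00102). The ranges of these 3 genes did not overlap between genotypes. Birc5, for Survivin, a subunit of the same passenger complex as Aurkb, read 8.87, 9.02 and 8.67 against 8.14, 8.05 and 8.28 (change -0.69 ± 0.13; adjusted p = 0.00122). Aurka, Cdca8 and Plk1 changed by -0.43, -0.54 and -0.56. In Lin- + MCSF 5 of the 7 were called. Aurkb read 9.26, 9.36, 9.10 and 9.44 in WT samples and 8.71, 8.68, 8.86 and 8.82 in CreER-Raptor samples (change -0.52 ± 0.09; adjusted p = 0.000512), which was the largest fall of any of the 39 genes in that population. Plk1, the Polo kinase of centrosomes and kinetochores, read 9.34, 9.51, 9.24 and 9.31 in WT samples against a range from 8.89 to 9.05 in CreER-Raptor samples (change -0.37 ± 0.10; adjusted p = 0.0169). Birc5 changed there by -0.43, Nek2 by -0.37 and Tpx2 by -0.27. In CMP 0 of the 7 were called, with changes from -0.21 to 0.00.

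Among 10 kinetochore and spindle checkpoint genes, 7 fell in GMP, with a median change of -0.65. Bub1b, for the checkpoint protein BubR1, read 8.30, 8.66 and 8.35 in WT GMP and 7.70, 7.50 and 7.57 in CreER-Raptor GMP (change -0.84 ± 0.14; adjusted p = 0.000247). Nuf2, a subunit of the Ndc80 complex that holds microtubule ends, read 8.20, 8.50 and 8.20 against 7.24, 7.04 and 7.52. It was 2.05-fold lower, with no overlap (change -1.04 ± 0.17; adjusted p = 0.000269). Its partner in that complex, Ndc80, had a change of -0.23 ± 0.13 (adjusted p = 0.312), at 8.36, 8.43 and 8.06 against 8.24, 7.93 and 8.00, and these ranges overlapped. Cenpf, a large protein of the outer kinetochore, read 6.70, 6.91 and 6.67 against 6.06, 5.86 and 6.10 (change -0.75 ± 0.13; adjusted p = 0.000293). Cenpa, the histone H3 variant that marks centromeres, read 8.68, 8.65 and 8.55 against 7.90, 7.93 and 7.98 (change -0.69 ± 0.12; adjusted p = 0.000302). Both sets of 3 were tight and well apart. Spc25, Ttk and Cenpe were the other members called, with changes of -0.67, -0.64 and -0.64. Bub1, the checkpoint kinase, changed by -0.44 (adjusted p = 0.0561), and Sgo1, which guards cohesion at centromeres, by -0.32 (adjusted p = 0.134). In Lin- + MCSF 2 of the 10 were called. Bub1b read 8.59, 8.86, 8.41 and 8.56 in WT samples and 8.06, 8.18, 8.23 and 8.09 in CreER-Raptor samples (change -0.47 ± 0.12; adjusted p = 0.0136). Nuf2 read 9.33, 9.52, 9.27 and 9.49 against 8.96, 9.02, 8.92 and 8.82 (change -0.47 ± 0.15; adjusted p = 0.0414). Cenpf, which fell clearly in GMP, had a change of -0.12 (adjusted p = 0.533) in Lin- + MCSF, and 0 of the 10 were called in CMP.

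All 7 spindle motor and microtubule-binding genes fell in GMP, with a median change of -0.76, the lowest median of any role. Nusap1, which bundles microtubules near chromosomes, read 9.17, 9.29 and 9.36 in WT GMP and 8.32, 8.22 and 8.34 in CreER-Raptor GMP. It was 1.98-fold lower (change -0.99 ± 0.11; adjusted p = 2.59e-06). Kif4, a chromosome-bound kinesin, read 7.27, 7.38 and 7.21 against 6.58, 6.33 and 6.68 (change -0.76 ± 0.13; adjusted p = 0.00028). Kif11, the kinesin that pushes spindle poles apart, read 9.33, 9.59 and 9.26 against 8.70, 8.14 and 8.70 (change -0.88 ± 0.15; adjusted p = 0.000423). Replicate 2 was the lowest CreER-Raptor GMP sample for each of these 3 genes. Hmmr, a spindle protein that also binds hyaluronan, read 7.69, 7.99 and 7.58 against 7.11, 6.78 and 6.80 (change -0.86 ± 0.16; adjusted p = 0.000698). Kif2c, Ckap2 and Dlgap5 changed by -0.56, -0.45 and -0.46. In Lin- + MCSF 3 of the 7 were called. Kif2c, a kinesin that takes microtubule ends apart, read 7.79, 8.05, 7.89 and 7.91 in WT samples and 7.46, 7.50, 7.55 and 7.59 in CreER-Raptor samples (change -0.39 ± 0.09; adjusted p = 0.00884). Nusap1 read 9.36, 9.61, 9.21 and 9.49 against 9.04, 9.10, 9.06 and 9.10 (change -0.34 ± 0.10; adjusted p = 0.0246). Kif4 changed by -0.36 ± 0.11 (adjusted p = 0.0335). In CMP Nusap1 and Kif4 had positive changes of 0.20 and 0.19, with adjusted p-values of 0.351 and 0.444.

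Of 6 genes of the central spindle and cytokinesis, 5 fell in GMP. Kif23, the kinesin of the centralspindlin complex, had the largest fall of the 39 genes, at 9.01, 9.38 and 9.16 in WT GMP and 7.82, 7.51 and 8.08 in CreER-Raptor GMP. It was 2.60-fold lower (change -1.38 ± 0.14; adjusted p = 6.57e-07). Racgap1, the other centralspindlin subunit, read 9.69, 9.84 and 9.79 against 9.26, 8.94 and 8.88 (change -0.75 ± 0.12; adjusted p = 0.000155). Prc1, which cross-links the central spindle, read 8.37, 8.63 and 8.24 against 7.51, 7.35 and 7.66. Its change was -0.91 ± 0.14 (adjusted p = 0.000171), and neither it nor the centralspindlin genes overlapped between genotypes. Ect2, which centralspindlin recruits to switch on the contractile ring, read 9.29, 9.41 and 9.31 against 8.96, 8.77 and 8.79 (change -0.49 ± 0.11; adjusted p = 0.00538). Kif20b changed by -0.64 (adjusted p = 0.00592), and Kif20a, the member not called, by -0.37 (adjusted p = 0.119). The 2 genes called in CMP, a count close to the share over all tested genes, were of this role and are given as values. Kif23 read 9.21, 9.57 and 9.32 in WT CMP and 8.93, 8.89 and 8.53 in CreER-Raptor CMP (change -0.59 ± 0.14; adjusted p = 0.00777), and Ect2 read 9.23, 9.47 and 9.28 against 9.22, 8.91 and 8.78 (change -0.36 ± 0.11; adjusted p = 0.0446). The highest CreER-Raptor value of Ect2 lay only just below the lowest WT value, and Ect2 lost its call without any 1 of 5 CMP samples, all but CreER-Raptor CMP replicate 1, with an adjusted p of up to 0.217. Without WT CMP replicate 2 or without CreER-Raptor CMP replicate 3, 0 of the 39 genes were called in CMP (adjusted p of Kif23 up to 0.0575), and without the latter the median change of the 39 was 0.03. In Lin- + MCSF 3 of the 6 were called. Racgap1 read 8.80, 8.77, 8.83 and 8.83 in WT samples and 8.30, 8.20, 8.42 and 8.36 in CreER-Raptor samples (change -0.49 ± 0.10; adjusted p = 0.00275). Prc1 changed by -0.40 and Ect2 by -0.32 (adjusted p = 0.0399 and 0.0375), while Kif23 had a change of -0.34 (adjusted p = 0.0756).

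Both chromosome structure genes fell in GMP. Top2a, for the topoisomerase that untangles sister DNA, read 9.36, 9.63 and 9.23 in WT GMP and 8.63, 8.37 and 8.84 in CreER-Raptor GMP (change -0.79 ± 0.13; adjusted p = 0.000244). Mki67, for the proliferation marker Ki-67, which coats mitotic chromosomes, read 10.77, 11.03 and 10.85 against 10.36, 10.08 and 10.31 (change -0.63 ± 0.12; adjusted p = 0.00071). In Lin- + MCSF Top2a was called, at 10.08, 10.28, 9.97 and 10.23 in WT samples and 9.84, 9.74, 9.77 and 9.82 in CreER-Raptor samples (change -0.35 ± 0.11; adjusted p = 0.049), and Mki67 had a change of -0.18 (adjusted p = 0.26). Of the 3 genes of ubiquitin-dependent protein breakdown, 1 fell in GMP and 2 in Lin- + MCSF. Ube2c, the E2 enzyme of the anaphase-promoting complex, was the member called in GMP, at 7.98, 8.01 and 7.92 in WT samples and 7.67, 7.53 and 7.23 in CreER-Raptor samples (change -0.49 ± 0.13; adjusted p = 0.0153). Cdc20, the activator of that complex in mitosis, had a GMP change of -0.16 ± 0.09 (adjusted p = 0.332), the smallest of the 39. In Lin- + MCSF Cdc20 was called, at 8.78, 8.84, 8.84 and 8.77 in WT samples and 8.32, 8.42, 8.40 and 8.54 in CreER-Raptor samples (change -0.39 ± 0.08; adjusted p = 0.00305). Cdca3 was called there too (change -0.31 ± 0.10; adjusted p = 0.0471), and Ube2c had a change of -0.30 (adjusted p = 0.0871).

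The calls in GMP rested little on single samples for most genes. Leaving out 1 GMP sample at a time left between 22 and 29 of the 39 genes called lower, with the fewest without WT GMP replicate 2, and 22 of the 30 genes kept their call in every such fit and under every alternative setting. The other 8 were Cdc25c, Aurka, Ttk, Cenpe, Ckap2, Dlgap5, Kif20b and Ube2c, whose highest adjusted p over these fits ran from 0.0527 (Kif20b) to 0.117 (Cdc25c). Each of the 6 GMP samples, when left out, ended the call of at least 1 of them. The calls in Lin- + MCSF depended more on single samples: 7 genes were called without WT replicate 2, 8 without CreER-Raptor replicate 1, and 10 without WT replicate 4 or without CreER-Raptor replicate 2. The 5 genes called in every fit were Ccna2, Aurkb, Kif2c, Racgap1 and Cdc20.

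Whether the genotype change itself differs between populations was tested as an interaction in the same fit. Between GMP and CMP, 8 of the 39 genes had a more negative change in GMP and 0 a less negative one, where 1.83% of all tested genes were called lower and 0.667% higher. All 39 differences were below 0, against 48.6% of all tested genes, with a median of -0.56. Nusap1 differed most, by -1.18 ± 0.16 (adjusted p = 0.000159), and Kif4 by -0.95 ± 0.18 (adjusted p = 0.00487). The others were Cenpf, Kif23, Cenpa, Kif2c, Mki67 and Aurkb. This count moved with the CMP samples: it was 22 without CreER-Raptor CMP replicate 3, the sample with low levels of these genes, and 14 without CreER-Raptor GMP replicate 3. It was 3 without CreER-Raptor CMP replicate 2, 4 without CreER-Raptor CMP replicate 1 or WT CMP replicate 3, and 5 without WT CMP replicate 1, WT CMP replicate 2, CreER-Raptor GMP replicate 2 or WT GMP replicate 2. With array weights, which give noisy samples less influence, it was 25. Over all tested genes, 111 were called higher and 305 lower in the main fit, against 804 and 1176 with array weights. Those called lower numbered 464 without CreER-Raptor CMP replicate 3 and 394 without CreER-Raptor GMP replicate 3. Between Lin- + MCSF and CMP 3 genes were called lower, Kif2c, Kif4 and Nusap1, and 0 higher, where 3.45% of all tested genes were lower and 4.32% higher. There 37 of 39 differences were below 0, against 48.5% of all tested genes. The count of 3 became 6 without CreER-Raptor CMP replicate 3, and 0 or 1 without any of WT Lin- + MCSF replicates 2 or 4, CreER-Raptor Lin- + MCSF replicates 1 or 2, CreER-Raptor CMP replicates 1 or 2, or any WT CMP sample. Between Lin- + MCSF and GMP the fall was smaller in Lin- + MCSF for 36 of the 39 genes, with a median difference of 0.27. The other 3 differences were below 0, as were 47.9% of those of all tested genes. The genes called higher were Cenpf (0.63 ± 0.17), Nusap1 (0.64 ± 0.15) and Kif23 (1.04 ± 0.19), and 0 were lower, where 2.93% of all tested genes were called higher and 1.83% lower. Across the 39 genes, the change in GMP and that in Lin- + MCSF, which share no samples, had a Pearson correlation of 0.36 and a Spearman correlation of 0.41, given as a description because genes are not replicates; over all tested genes the Pearson correlation was 0.40.

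The next comparisons set the populations beside each other. They share samples with each other and with the genotype comparisons, so each is described by its own values. Between WT GMP and WT CMP, 5 of 39 genes were called, where 11% of all tested genes were (6.65% higher and 4.35% lower). That count is close to the share over all tested genes, and the genes called are given as values. With samples centred on their medians the split of all called genes moved from 1107 higher and 724 lower to 1346 and 491, and 2 members were then higher and 1 lower. Aurkb and Racgap1 were higher in WT GMP, by 0.41 ± 0.11 (adjusted p = 0.014) and 0.43 ± 0.12 (adjusted p = 0.0232). The kinetochore genes Spc25, Cenpa and Cenpe were lower, by changes of -0.39, -0.46 and -0.50 (adjusted p = 0.0433, 0.013 and 0.0453). For Cenpa the WT CMP values were 9.12, 9.09 and 9.07, against 8.68, 8.65 and 8.55 in WT GMP. The number called was 0 without WT GMP replicate 3, 1 without WT CMP replicate 2, 2 without WT CMP replicate 1, and 3 without WT CMP replicate 3 or WT GMP replicate 1. In CreER-Raptor samples, 30 of 39 genes were lower in GMP than in CMP and 0 were higher, where 15.4% of all tested genes were called lower and 12.5% higher. The median change between these 2 groups was -0.60. Nusap1 stood at 9.52, 9.72 and 9.31 in CreER-Raptor CMP and at 8.32, 8.22 and 8.34 in CreER-Raptor GMP, a change of -1.23 ± 0.11 (adjusted p = 5.59e-08). Cenpa changed by -1.22 ± 0.12 (adjusted p = 9.37e-08) and Cenpe by -1.22 ± 0.16 (adjusted p = 6.29e-06). All 10 kinetochore and all 7 motor genes were called lower in this step. Aurkb, Racgap1, Ect2 and Kif20a were not called, with changes of -0.19, -0.00, -0.12 and -0.09, nor were Cdk1, Ccna2, Ccnb2, Aurka and Cdca3.

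**Figure D5:**
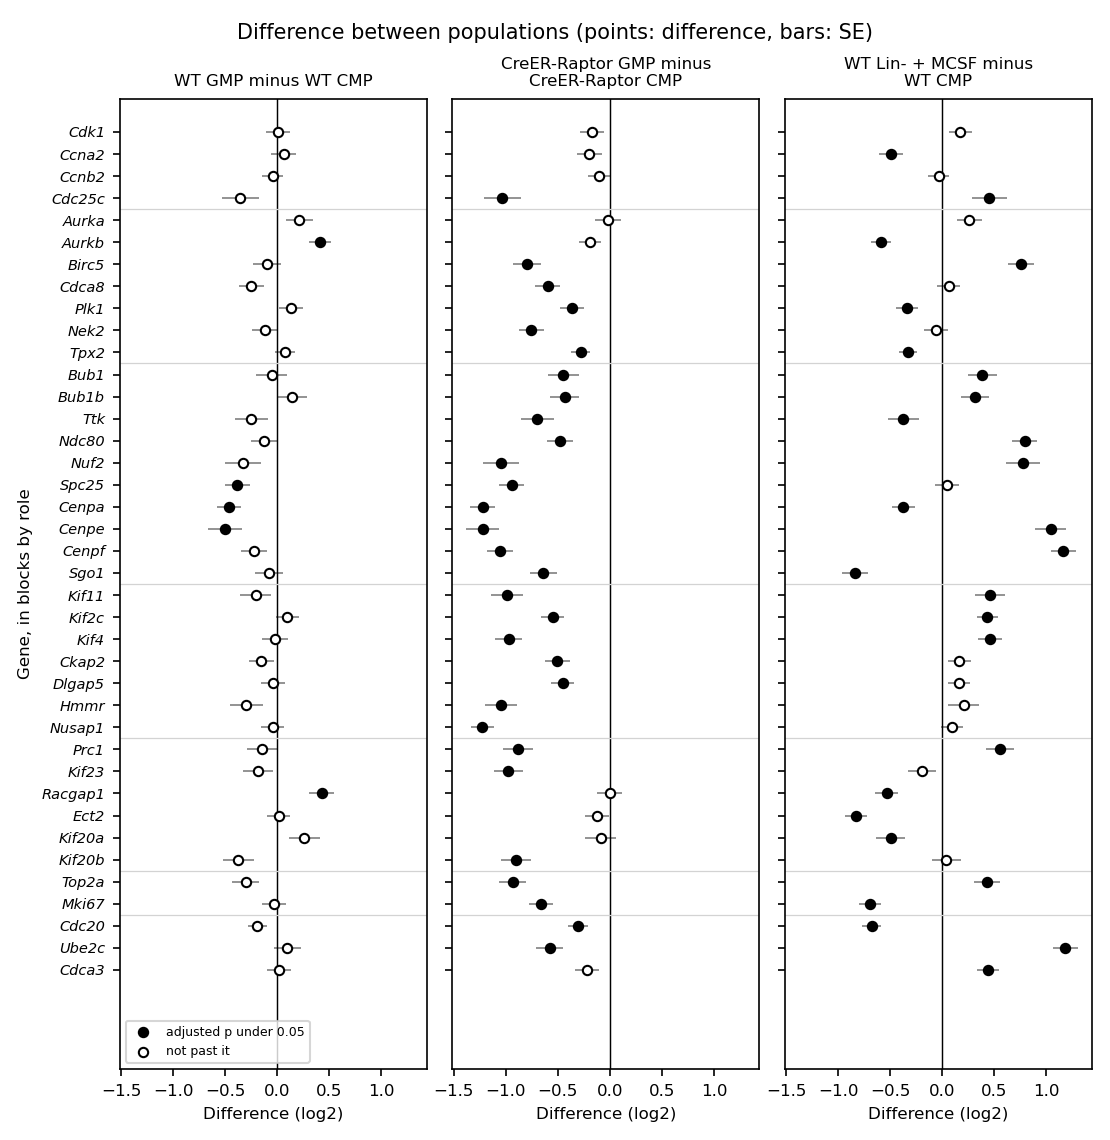
Differences between populations (log2, horizontal axis; points with SE bars) for each gene: WT GMP minus WT CMP, CreER-Raptor GMP minus CreER-Raptor CMP, and WT Lin- + MCSF minus WT CMP; filled points had a limma adjusted p under 0.05. The middle panel has 30 filled points left of 0, while the right panel has 15 filled points right of 0 and 12 left of it, of which 6 lose their call under cyclic loess scaling.

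The WT Lin- + MCSF samples were not uniformly higher or lower than WT CMP: 15 genes were higher and 12 lower, where 55.6% of all tested genes were called (19.6% higher and 36% lower). These populations differ in sort and in culture, and the lymphoid and dendritic marker means given above also differed; their part in the result was not tested. Ube2c had the largest rise, from 7.93, 7.85 and 7.84 in WT CMP to 8.98, 9.31, 9.01 and 8.93 in WT Lin- + MCSF. It was 2.27-fold higher (change 1.18 ± 0.12; adjusted p = 4.15e-08). Cenpf and the kinetochore motor Cenpe followed, with changes of 1.16 ± 0.12 (adjusted p = 4.03e-08) and 1.04 ± 0.15 (adjusted p = 4.21e-06). Cenpe stood at 7.99, 8.05 and 8.00 in WT CMP and at 8.98, 9.10, 9.02 and 9.11 in WT Lin- + MCSF. Ndc80 and Nuf2, of 1 complex, were higher by 0.79 ± 0.12 and 0.78 ± 0.16 (adjusted p = 8.79e-06 and 0.000333), and Birc5 by 0.75 ± 0.13 (adjusted p = 2.93e-05). In the other direction, Sgo1 stood at 8.56, 8.78 and 8.62 in WT CMP and at 7.52, 7.97, 7.82 and 7.93 in WT Lin- + MCSF (change -0.84 ± 0.12; adjusted p = 6.17e-06). Ect2 read 9.23, 9.47 and 9.28 against 8.40, 8.66, 8.49 and 8.42 (change -0.83 ± 0.11; adjusted p = 9.22e-07). Mki67 changed by -0.69 ± 0.11 (adjusted p = 1.28e-05), Cdc20 by -0.68 ± 0.09 (adjusted p = 1.16e-06), Aurkb by -0.59 ± 0.10 (adjusted p = 2.92e-05) and Racgap1 by -0.54 ± 0.11 (adjusted p = 0.000296). The passenger complex partners Aurkb and Birc5 thus lay on opposite sides.

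The scale of this comparison was not settled by the normalization. The median of all tested genes was -0.14, and cyclic loess scaling of the samples raised it by 0.14 log2 units. Under that scaling 24 of the 39 genes were higher and 6 lower, and of all tested genes 4606 were higher and 4244 lower, in place of 3262 and 5988. Ccna2, Plk1, Ttk, Tpx2, Cenpa and Kif20a, called lower before, had changes from -0.26 (Kif20a) to -0.06 (Tpx2) that did not pass under cyclic loess. Ccnb2 went from -0.04 and not called to 0.24 with an adjusted p of 0.0493. Sgo1, Ect2, Mki67, Cdc20, Aurkb and Racgap1 stayed lower under each of the 3 scalings tried. Against WT GMP, 19 of 39 genes were higher in WT Lin- + MCSF and 10 lower, where 56.3% of all tested genes were called (20.3% higher and 36.1% lower). Cyclic loess gave 27 and 8, with 4539 and 4458 of all tested genes in place of 3373 and 6001, and raised the median of all genes by 0.12. Cenpe had the largest rise there (change 1.54 ± 0.15; adjusted p = 1.44e-08) and Aurkb the largest fall, from 10.18, 10.21 and 10.48 in WT GMP to 9.26, 9.36, 9.10 and 9.44 (adjusted p = 1.91e-08).

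The 39 genes varied together across samples, though not all of them. Over 741 gene pairs, the median Pearson correlation across the 20 samples was 0.59 and 77.1% of pairs were above 0. After the group means were subtracted, the median was 0.47 and 96.2% of pairs were above 0. The samples share arrays, scaling and RNA amplification, and these correlations are descriptions. Prc1, Nuf2, Top2a and Kif11 had the highest median correlation with the rest, from 0.82 to 0.84. Kif20a, Cdc20, Sgo1, Ect2, Aurkb, Ccna2 and Racgap1 had medians from -0.08 to 0.02, and each of the 7 was called lower in WT Lin- + MCSF than in WT CMP, Kif20a and Ccna2 not under cyclic loess.

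Outside the list, the 10 genes whose log2 values followed the mean of the 39 most closely over the 20 samples were Ncoa7 (r = 0.95), Anln, Sqle, Shcbp1, Smchd1, Kif15, Btaf1, Smc2, Ncapg2 and Eri1 (r = 0.90). Anln, Shcbp1 and Kif15 belong to mitosis and cytokinesis and Smc2 and Ncapg2 to condensin, while Sqle encodes squalene epoxidase of sterol synthesis. All 10 were called lower in CreER-Raptor GMP, Sqle with a change of -1.67 ± 0.17 (adjusted p = 5.45e-07) and Ncoa7 with -1.07 ± 0.12 (adjusted p = 2.9e-06). This follows in part from how they were picked, since the mean of the 39 is lowest in those samples. In CMP 0 of the 10 were called.

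Related cell cycle genes outside the list were followed through 6 further lists, also drawn up with earlier results of these data known. Beside their counts, the shares of all tested genes called lower were 7.53% in GMP, 5.73% in Lin- + MCSF and 5.44% in CMP, and those called higher 4.37%, 6.82% and 6.01%. Counts of 1 or 2 genes in a list are too small to set against these shares and are given as values. Of 66 other mitotic genes tested, 45 fell in CreER-Raptor GMP and 0 rose, with a median change of -0.51, and 30 fell in Lin- + MCSF and 0 rose. Those of smallest p in GMP were Ckap2l (change -0.82), Kif18b (-0.72), Cenpi (-0.80) and Cenpl (-0.84). In CMP 1 fell, Cep55 (change -0.86 ± 0.13; adjusted p = 8.94e-05), which acts in the final cut between daughter cells, and 1 rose, Psrc1 (change 0.64; adjusted p = 0.00539). Of 18 condensin and cohesin genes, 7 fell in GMP and 2 in Lin- + MCSF, led in both by the condensin subunit Ncaph (changes -0.81 and -0.38). Of 17 genes of the anaphase-promoting complex and its regulators, 4 fell in GMP and 0 were called in Lin- + MCSF, where 0 rose. Those in GMP were the subunit genes Anapc13 and Anapc15 and the regulator genes Fzr1 and Fbxo5. Of 50 S phase and replication genes, 13 fell in GMP and 7 in Lin- + MCSF, with medians of -0.26 and -0.17, among them Lig1 and Pola1 in GMP and Rrm1 and Gins1 in Lin- + MCSF. Of 23 regulators of cell cycle genes, among them MuvB subunits, E2F factors and pocket proteins, 5 fell in GMP and 0 rose. They included Foxm1 (change -0.60; adjusted p = 0.016), whose product drives G2 and mitosis genes, the MuvB subunit Lin52 (-0.45), and the repressors E2f7 (-0.46) and E2f8 (-0.38). The GMP ranges of Foxm1 overlapped between genotypes. In Lin- + MCSF 5 regulators fell, among them Mybl2, which encodes B-Myb (change -0.34; adjusted p = 0.00708), and E2f2 (-0.67), and Tfdp2 rose (0.44). Mybl2 was not called in GMP, where its group means were 9.32 in WT and 9.55 in CreER-Raptor samples. Its genotype change was lower in Lin- + MCSF than in GMP by a difference of -0.57 (interaction, limma adjusted p = 0.00772). In CMP E2f7 fell (-0.37) and Tfdp2 rose (0.41). Of 13 G1 cyclins, kinases and inhibitors, Cdkn2c fell in GMP (change -0.86; adjusted p = 0.00236) and Ccnd1 rose (change 0.81; adjusted p = 0.0373), and Ccnd1 also rose in CMP (change 0.91; adjusted p = 0.0185). In Lin- + MCSF Cdk6 rose (change 0.37; adjusted p = 0.0136) and the inhibitor gene Cdkn1a fell (change -0.47; adjusted p = 0.0257).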

How the data were processed

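Sorted or cultured cells were lysed for RNA, which was amplified with a NuGEN kit, labelled with biotin and put on single-channel arrays, per the labels' protocols. The authors deposited log2 values for 41345 probe sets; the tools in the submitters' processing notes are RMA, Partek (version 6.6) and limma, with roles and order not given in the sources used here. RMA makes samples alike in their overall distribution, which hides a shift common to most genes, and the number of samples limits the precision.

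Each of 20 columns was matched to a sample by name. Of the probe sets, 23521 had 1 gene symbol, 1814 several and 16010 none; the brightest probe set of a gene was kept, and genes with a mean under the 25th percentile (log2 3.86) were left out. The model was 1 limma fit (version 3.58.1, R 4.3.3; 6 group means, eBayes without trend, 14 residual degrees of freedom, 10 comparisons), and the code was tested on simulated data. Symbols of the 39 genes were the same in RefSeq. Members and gene lists were chosen with earlier results of these data known. Per-sample values are given for up to 4 called genes of smallest p in each role and comparison; other lists name up to 4 genes of smallest p, and 10 further genes by correlation. Replicate numbers are shared across groups, with same-number correlations of deviations from -0.34 to 0.18. Between CreER-Raptor CMP and CreER-Raptor GMP, though not between the other groups, every sample correlated best with its own number. The labels do not say whether the numbers mark pairs, so pairing was not settled. Alternatives were other filters, probe set averages, 3 scalings, array weights, trended and robust eBayes, the replicate block, separate fits and leaving out each sample. Figures used matplotlib 3.10.9.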

Additional observations from a re-analysis of the deposited data

Results flagged for a closer look

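In 3 of 78 gene and group combinations with 4 samples, a single sample lay far from the other 3; chance gives such a gap in about 1 of 20 groups. Birc5 in WT Lin- + MCSF had a lowest value of 9.51 (replicate 1), with the others from 9.75 to 9.79. Cdca8 in the same group had a highest value of 9.04 (replicate 2), with the others from 8.82 to 8.86. Bub1 in CreER-Raptor Lin- + MCSF had a highest value of 8.30 (replicate 3), with the others from 8.06 to 8.10.

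The genotype change differed between populations by the interaction test for 14 gene and population combinations. Against CMP, the change in GMP was lower by differences of -1.18 in Nusap1, -0.95 in Kif4, -0.83 in Cenpf, -0.79 in Kif23, -0.76 in Cenpa, -0.65 in Kif2c, -0.63 in Mki67 and -0.60 in Aurkb, with limma adjusted p-values from 0.000159 to 0.0443. Against CMP, the change in Lin- + MCSF was lower by differences of -0.56 in Kif4, -0.54 in Nusap1 and -0.47 in Kif2c (adjusted p from 0.027 to 0.0477). Against GMP, the change in Lin- + MCSF was less negative by 1.04 in Kif23, 0.64 in Nusap1 and 0.63 in Cenpf (adjusted p from 0.00188 to 0.0319).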

How the results depend on the processing

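In some comparisons the count called in either direction stayed within 1.5 times of the main count under 10 alternatives. These were CreER-Raptor against WT GMP (29 to 33) and CreER-Raptor GMP against CreER-Raptor CMP (26 to 30). They also included WT Lin- + MCSF against WT CMP (23 to 30) and WT GMP (27 to 35). No gene called in the main fit of these comparisons changed direction. Cyclic loess, however, moved the split of WT Lin- + MCSF against WT CMP from 15 higher and 12 lower to 24 and 6. Against WT GMP it moved from 19 and 10 to 27 and 8. In CMP, 1 gene in place of 2 was called with no filter on dim genes, samples centred on their median, cyclic loess, array weights, the replicate block or the population fitted alone. In Lin- + MCSF, 11 genes in place of 18 were called with array weights, 10 with the replicate block and 9 with the population fitted alone. Calls over all tested genes fell too: 953 were lower in the main fit and 604, 698 and 422 in these fits. In WT GMP against WT CMP, 3 in place of 5 were called with no filter, centred samples or the replicate block and 10 with array weights. Centring also moved the split of all called genes from 1107 higher and 724 lower to 1346 and 491. With array weights that split was 2092 and 1903. For the GMP and CMP interaction, 13 in place of 8 were called with a 50th percentile filter or centred samples, 25 with array weights, 14 with a trended and robust eBayes and 4 with the replicate block. Array weights also raised the calls over all tested genes, from 111 higher and 305 lower to 804 and 1176. For the Lin- + MCSF and CMP interaction, 1 in place of 3 was called with no filter and 0 with the replicate block or separate fits. With 1 sample left out at a time, the counts ran from 0 to 2 in CMP, 22 to 29 in GMP, 7 to 16 in Lin- + MCSF, 0 to 4 in WT GMP against WT CMP, 24 to 30 in CreER-Raptor GMP against CreER-Raptor CMP, 23 to 27 and 25 to 30 for WT Lin- + MCSF against WT CMP and WT GMP, and 3 to 22, 0 to 6 and 2 to 4 in the interactions. Ccnb2 in WT Lin- + MCSF against WT CMP turned from -0.04 to 0.24 under cyclic loess, and Rptor in CMP passed with array weights (change -0.36; adjusted p = 0.0123). The causes were not tested. Samples shared only a replicate number; between CreER-Raptor CMP and CreER-Raptor GMP, though not between the other groups, every sample correlated best with its own number, a hint from the data and not from the design. Small groups, unknown scanner background and the unstated origin of replicates limit all values.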
